A study of Drosophila melanogaster with 4 samples.

Results

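The 7 genes described here encode enzymes that remodel membrane phospholipids or add their head groups. They are LPCAT (FBgn0052699), nes, oys and frj, which are lysophospholipid acyltransferases, and eas, bbc and Pcyt1, which belong to the synthesis of phosphatidylcholine and phosphatidylethanolamine. They were taken by symbol from the 17807 genes of the count table, and all 7 passed the filter on low counts that left 10795 genes. The set was chosen by function around LPCAT, whose low counts in the mutant were already known from these same libraries. The differences between the genotypes in these 7 genes are therefore given as descriptions. RNA was measured in whole guts of females aged 7 days, in pools of 20 to 30 guts, with 2 libraries per genotype. The wh7 flies were homozygous for wh7, a mutant allele of dwdr4, the gene of the fly Wdr4 protein. Per the study's methods such females came from fathers that carried a dwdr4-gfp transgene and were themselves without it. The WT flies were of the strain yw, which carries the body and eye color mutations yellow and white. The study describes an outcross of wh7 to yw for its lifespan assay, and none is named for the RNA-seq. Differences due to the allele and to the strain background cannot be told apart here. No transgene or treatment was given to either group for the RNA-seq.

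Phospholipids of cell membranes have a glycerol backbone, fatty acyl chains and a polar head group such as choline, ethanolamine, serine or inositol. In the Kennedy pathway choline or ethanolamine is phosphorylated by a kinase, activated by a cytidylyl transferase and joined to diacylglycerol by a phosphotransferase. In the remodeling cycle named after Lands, a phospholipase A2 removes an acyl chain, and a lysophospholipid acyltransferase puts another in its place. Membranes of Drosophila are rich in phosphatidylethanolamine, and phospholipids also cover the surface of the lipid droplets and lipoproteins of gut cells.

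The counts summed to between 93603837 and 101610356 per library. The mutated gene, listed as wuho (FBgn0029857), had 2 and 3 counts in the wh7 libraries, against 1489 and 1256 in the WT libraries. Its direct neighbor in the gene order, Top3beta, which encodes a topoisomerase, was also near absent in wh7, with 29 and 20 counts, against 3317 and 2480 in WT. Top3beta passed edgeR's test, so that the wh7 libraries differ from WT at this locus in more than wuho. Markers of the gut were present, with summed normalized counts of 260092 and 250675 in wh7 and of 210933 and 307776 in WT for the enterocyte genes Myo31DF, nub and Myo61F. The summed enteroendocrine markers were lower in both wh7 libraries (18021 and 20019) than in both WT libraries (30552 and 29205). All 6 genes of that list had a lower mean in wh7, and 1 of them, AstA, passed edgeR's test. DESeq2's test called 3 of the 6 (Tk, NPF and AstA), against 7.04% of all genes with an adjusted p from it, and 4 of the 6 had an unadjusted p under 0.05 from edgeR, against 14.5% of all genes tested. The fat body list (97875 and 65471 in wh7, 102313 and 173487 in WT) and the hindgut list (3173 and 3633 in wh7, 8318 and 4157 in WT) were also lower in wh7 without overlap. By edgeR's test 0 of the 4 fat body genes (2 with a higher mean in wh7, 0 at an unadjusted p under 0.05) and 0 of the 2 hindgut genes (1 higher, 1 at an unadjusted p under 0.05) passed, and 0 by DESeq2's, and the fat body sum is mostly that of apolpp. The part of these shifts in the differences below was not tested, and in whole guts fewer cells of a type and less RNA per cell cannot be told apart. The sums of the intestinal progenitor, visceral muscle, Malpighian tubule and ovary lists overlapped between the genotypes. The progenitor list, in which esg was not matched, had 14378 and 13977 in wh7 and 11377 and 14112 in WT. Of its 4 tested genes, 2 had a higher and 2 a lower mean in wh7. The sum is mostly that of heca (9699 and 9877 in wh7, 7666 and 7967 in WT). Delta had 1151 and 1048 in wh7 and 1271 and 1939 in WT. All 3 Malpighian tubule genes had a lower mean in wh7. Their sums were 6541 and 6901 in wh7, while the WT libraries were far apart, at 14316 and 5935. Normalized counts are counts scaled by TMM, a correction for library size and composition.

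LPCAT encodes a lysophosphatidylcholine acyltransferase of the same protein family as the lysophosphatidate acyltransferases (AGPATs), related to mammalian LPCAT1 and LPCAT2. It had 773 and 833 normalized counts in the wh7 libraries, against 7952 and 10584 in the WT libraries. The wh7 libraries were close to each other, and each lay far below both WT libraries. The means were 803 ± 42.2 in wh7 and 9268 ± 1861 in WT (SD, n = 2 each), so that LPCAT was 11.5-fold lower in wh7, a log2 fold change of -3.53 (standard error, SE, 0.21). Of the 6018 genes with a mean of at least 1000 normalized counts, 13 had a lower log2 fold change than LPCAT. Of the 7 genes only LPCAT passed edgeR's quasi-likelihood test with all 4 libraries, at an adjusted p under 0.05. Of all genes tested 0.482% passed (52 of 10795), 0.25% higher and 0.232% lower in wh7, and nothing is read from the count of members, since this contrast chose LPCAT. The log2 fold change of LPCAT was between -3.72 and -3.31 with single libraries left out. Without wh7 replicate 1 (-3.48) or wh7 replicate 2 (-3.58) LPCAT no longer passed the test, and then 0 genes of the whole table did. Leaving out WT replicate 1 gave 401 genes that passed, and leaving out WT replicate 2 gave 921, LPCAT among them in both cases. With 1 library of a genotype left out, the spread comes from the 2 libraries of the other genotype alone.

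**Figure D1:**
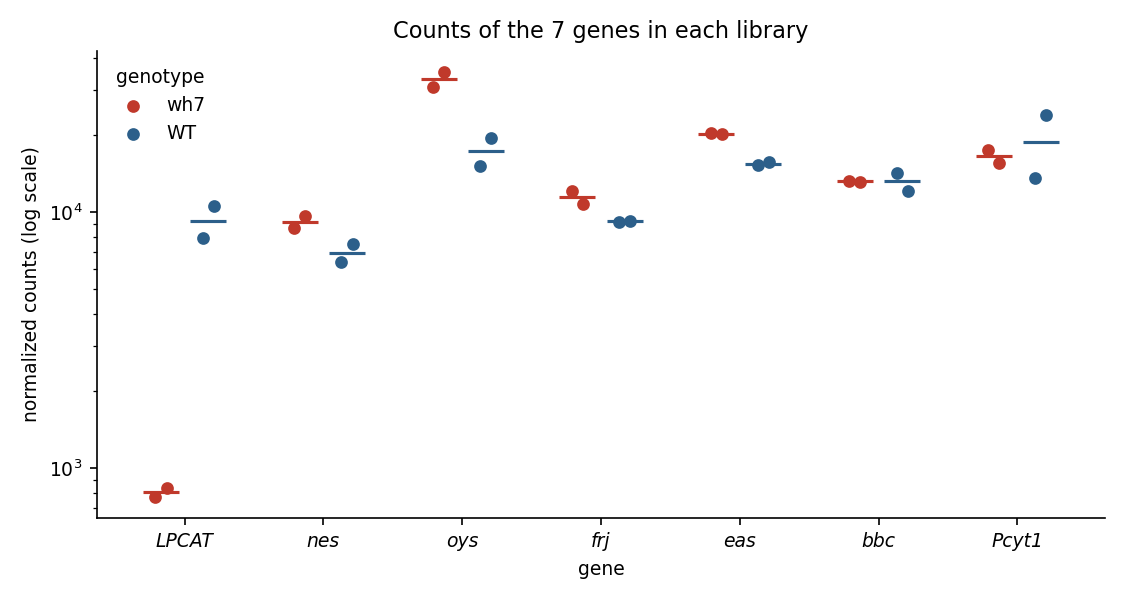
Normalized counts (log axis) of the 7 genes in the 2 wh7 and the 2 WT libraries, one point per library, with a line at each mean. LPCAT lies at 773 and 833 in wh7 and at 7952 and 10584 in WT, and nes, oys, frj and eas lie higher in both wh7 libraries than in both WT libraries.

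The other lysophospholipid acyltransferases belong to the membrane-bound O-acyltransferase (MBOAT) family. The gene oys, related to mammalian MBOAT1 and MBOAT2, had 30823 and 35390 normalized counts in wh7, against 15182 and 19492 in WT. Both wh7 libraries exceeded the higher WT library by more than the distance between the WT libraries. The mean of oys was 1.91-fold higher in wh7, a log2 fold change of 0.93 (standard error 0.19) that lay between 0.76 and 1.12 with single libraries left out. It passed DESeq2's Wald test, as LPCAT did and as 7.04% of the genes with an adjusted p from that test did, but not edgeR's test on all 4 libraries. Without WT replicate 2 (1.12) oys passed edgeR's test, where 921 genes did and the spread came from the wh7 libraries alone. The gene nes, related to mammalian LPCAT3, had 8716 and 9689 normalized counts in wh7 and 6374 and 7514 in WT. Its log2 fold change was 0.41 (standard error 0.16), with 0.29 and 0.52 as the values when WT replicate 1 or WT replicate 2 was left out. The gene frj, related to mammalian MBOAT7, which acts on lysophosphatidylinositol, had 12140 and 10771 normalized counts in wh7, against 9159 and 9271 in WT. The WT libraries of frj were almost equal, and its log2 fold change was 0.31 (standard error 0.14). The counts of wh7 and WT did not overlap for any of the 3 MBOAT genes, each of which had the higher counts in wh7. Over all genes tested, 46.7% had no overlap, 23.8% with higher and 22.9% with lower counts in wh7.

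To ask whether nes, oys and frj offset LPCAT in total transcript level, the counts were divided by the longest annotated coding length of each gene. Levels of different genes can be compared only per length. Untranslated parts of the transcripts, which also give reads, were left out of this length, so that levels of different genes compare only roughly. Coding lengths were 1599 bases for LPCAT, 1491 for nes, 2166 for oys and 1467 for frj. On this scale LPCAT had a level of 484 and 521 normalized counts per kb in the wh7 libraries, against 4973 and 6619 in the WT libraries. Summed, nes, oys and frj had 28351 and 30180 per kb in wh7 and 17528 and 20358 per kb in WT, a ratio of 1.54. Between the means of the genotypes, wh7 minus WT, LPCAT differed by -5294 per kb, oys by 7280, frj by 1528 and nes by 1515. The difference of oys alone was thus larger in size than that of LPCAT. The sum over all 4 genes was 28835 and 30701 per kb in wh7 and 22501 and 26977 per kb in WT. The wh7 sums were both above the WT sums, by a ratio of the means of 1.20 that lay between 1.10 and 1.32 with single libraries left out. For a sum in 2 libraries of each genotype an exact permutation test cannot give a two-sided p below 0.333, and none was run. These sums are of transcripts of enzymes with different substrates, and neither protein nor enzyme activity was measured. They leave out the AGPATs, which are of the protein family of LPCAT. Agpat4 had means of 21488.4 normalized counts in wh7 and 36748.5 in WT, and Agpat3 of 18942.3 and 25621.4. The means of Agpat2 were 9803.74 and 10297, and those of Agpat1 were 85.9723 and 405.88. The ratio of 1.20 thus holds for the 4 summed genes alone.

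**Figure D2:**
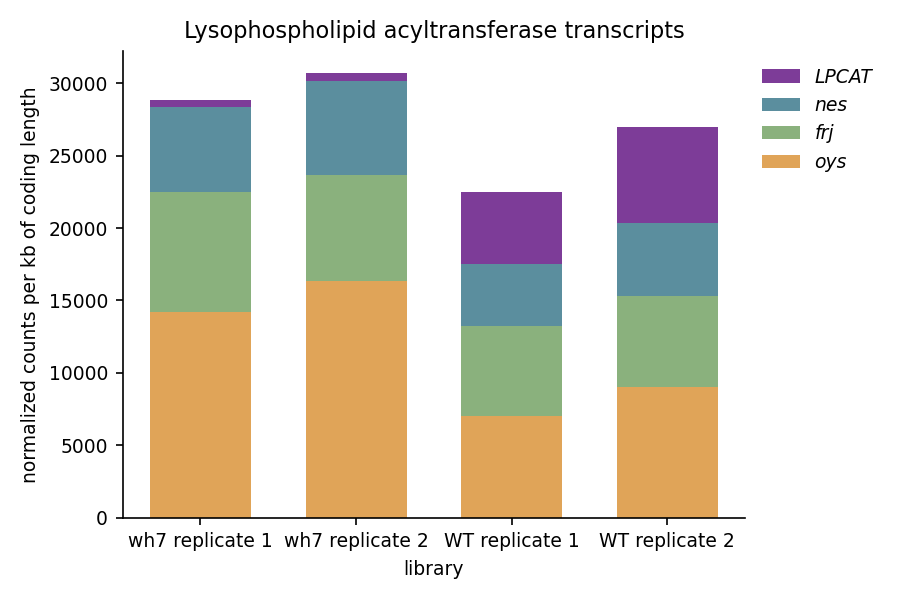
Stacked normalized counts per kb of coding length of LPCAT, nes, frj and oys in each library (wh7 on the left, WT on the right). LPCAT is a thin band of 484 and 521 per kb in wh7, while the whole stack is higher in wh7 (28835 and 30701) than in WT (22501 and 26977).

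The makeup of this sum within a library does not depend on the scaling between libraries, but it does depend on the lengths used. LPCAT made up 1.68% and 1.70% of the 4-gene sum in wh7, against 22.1% and 24.5% in WT. The share of oys was 49.4% and 53.2% in wh7 and 31.2% and 33.4% in WT. The gap between the genotypes was larger than that between libraries of 1 genotype for both genes. The share of nes was 20.3% and 21.2% in wh7 and 19.0% and 18.7% in WT. For frj the shares overlapped, with 28.7% and 23.9% in wh7 and 27.7% and 23.4% in WT. Since LPCAT is part of this sum, a lower LPCAT alone raises the shares of the others. Of the sum of nes, oys and frj without LPCAT, oys made up 50.2% and 54.1% in wh7, against 40.0% and 44.2% in WT. On that base the share of nes was lower in both wh7 libraries (20.6% and 21.5%) than in WT (24.4% and 24.8%), and so was that of frj (29.2% and 24.3% in wh7, 35.6% and 31.0% in WT). The level of oys was 29.4 and 31.4 times that of LPCAT in the wh7 libraries, and 1.41 and 1.36 times in the WT libraries.

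Among the head-group enzymes, eas encodes the ethanolamine kinase of the Kennedy pathway, known from the bang-sensitive easily shocked mutants. It had 20344 and 20268 normalized counts in wh7, against 15258 and 15728 in WT. The libraries of each genotype were close together, and the log2 fold change of 0.39 (standard error 0.13) lay between 0.37 and 0.41 with single libraries left out. The gene eas passed neither edgeR's nor DESeq2's test. The gene bbc (bb in a boxcar) encodes a phosphotransferase that joins choline or ethanolamine to diacylglycerol, the last step of the pathway. It had 13305 and 13197 normalized counts in wh7 and 14275 and 12168 in WT, so that the wh7 libraries lay between the WT libraries. Its log2 fold change was 0.00 (standard error 0.15), and leaving out single libraries moved it between -0.11 and 0.12. The gene Pcyt1 encodes CTP:phosphocholine cytidylyl transferase, which sets the pace of phosphatidylcholine synthesis in animal cells. It had 17495 and 15619 normalized counts in wh7, against 13651 and 24062 in WT. The WT libraries of Pcyt1 were 1.76-fold apart and enclosed both wh7 libraries. The log2 fold change of -0.19 (standard error 0.31) was 0.27 once WT replicate 2 was left out and -0.54 without WT replicate 1, so that its direction rests on which WT library is used.

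Per kb of coding length the order of the 7 genes differed between the genotypes. In wh7 the highest level was that of oys (14230 and 16339 per kb), followed by eas (13700 and 13648), and the lowest was that of LPCAT. Neighbors in the wh7 order had levels that did not overlap, except bbc and Pcyt1 (10636 and 10549 against 11087 and 9898). In WT, Pcyt1 (8651 and 15248 per kb), bbc (11411 and 9727) and eas (10275 and 10591) led and overlapped each other. LPCAT was sixth in WT and overlapped with frj above it (6243 and 6320) and with nes below it (4275 and 5040). Per kb of coding length LPCAT was thus at a level like those of frj and nes in WT and more than 10-fold below each of them in wh7.

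Other genes of phospholipid metabolism were taken from 5 lists written from general knowledge, which hold none of the 7 genes. Of their 53 genes, 52 were found in the table (Pss was not matched) and 51 could be tested, CG15450 having 0 counts in every library. Of these 51 genes, 22 had a higher and 29 a lower mean in wh7, and their median log2 fold change was -0.07, against -0.02 over all genes tested. By edgeR's test 0 of the 51 passed the threshold on the adjusted p, and 7 (3 higher, 4 lower) had an unadjusted p under 0.05, which is 13.7%, against 14.5% of all genes tested. DESeq2's Wald test called 3 of the 51, Pcyt2, Agpat4 and Pisd, against 7.04% of all genes with an adjusted p from it. The genes given next were picked because they passed edgeR's test with 1 WT library left out. Without WT replicate 1 the log2 fold changes of CG18858, Agpat1 and CG31683 were -1.04, -3.02 and -1.65. With all 4 libraries they were -0.52, -2.23 and -1.07. Without WT replicate 2 those of Pcyt2, Agpat3, Agpat4 and CG18135 were 1.46, -0.73, -0.78 and -1.20. With all 4 libraries they were 1.21, -0.44, -0.77 and -0.87. The wh7 and WT counts did not overlap for 49.0% of the 51, against the 46.7% of all genes given above. The median absolute log2 fold change of the 51 genes was 0.29, against 0.26 over all genes tested.

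Phosphatidate and lysophosphatidate are made by glycerophosphate acyltransferases (GPATs) and AGPATs, relatives of LPCAT. Of 9 such genes tested, 2 had a higher and 7 a lower mean in wh7 (median log2 fold change -0.07). Agpat4 had 19744 and 23233 normalized counts in wh7 and 36595 and 36902 in WT. The WT libraries were nearly equal, and the log2 fold change was -0.77 (SE 0.15, edgeR-adjusted p = 0.138, DESeq2-adjusted p = 0.00614). Agpat1 had 62.8 and 109 normalized counts in wh7, against 113 and 699 in WT. Its log2 fold change of -2.23 was -0.40 once WT replicate 2 was left out and -3.02 without WT replicate 1, so that a single high WT library carried it. Gnpat, the acyltransferase that starts ether lipid synthesis in peroxisomes, was at 0.45 (edgeR-adjusted p = 0.246), with 6094 and 5816 normalized counts in wh7 and 4334 and 4392 in WT. CG34348 had a log2 fold change of 0.18. The GPAT genes mino and Gpat4 and the tafazzin gene Taz, whose product remodels cardiolipin, had log2 fold changes of -0.51, 0.00 and 0.00.

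The head-group list held 12 tested genes, 6 with a higher and 6 with a lower mean in wh7 (median -0.02). Pcyt2 had 553 and 504 normalized counts in wh7, against 192 and 266 in WT. Its exons overlap those of Pcyt1 on the same strand, and how reads there were assigned is not given. Both wh7 libraries lay above both WT libraries, with a log2 fold change of 1.21 (SE 0.25, edgeR-adjusted p = 0.149, DESeq2-adjusted p = 0.00979). Pisd encodes phosphatidylserine decarboxylase, which makes phosphatidylethanolamine in mitochondria. It had 1947 and 1404 normalized counts in wh7 and 3448 and 3957 in WT, a log2 fold change of -1.14 (SE 0.22, edgeR-adjusted p = 0.135, DESeq2-adjusted p = 0.00137). Pisd was lower in both wh7 libraries, and leaving out single libraries moved its log2 fold change between -1.40 and -0.93. Pect, the phosphoethanolamine cytidylyl transferase that follows eas, had 8886 and 7640 normalized counts in wh7 and 7990 and 12824 in WT, which overlapped. CG2201, a choline kinase gene, had a log2 fold change of 0.15, while that of CG7149 was -0.52, or -0.19 with WT replicate 1 and -0.80 with WT replicate 2 left out. Pis, the phosphatidylinositol synthase gene, was at 0.22, with a range from -0.12 to 0.65 over the single libraries left out.

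**Figure D3:**
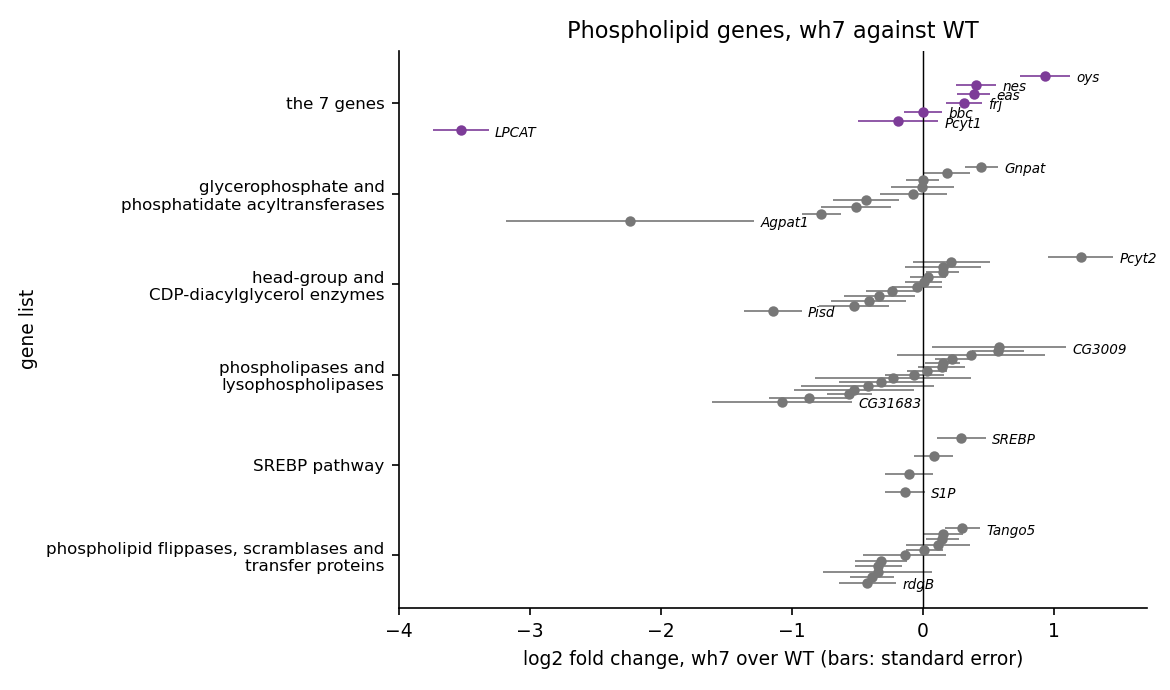
Log2 fold changes, wh7 over WT, with standard errors, of the 7 genes (top) and of the tested genes of the 5 phospholipid lists, one point per gene. LPCAT at -3.53 lies apart from all the others, of which Agpat1 is lowest at -2.23 and Pcyt2 is highest at 1.21.

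Phospholipases A2 produce lysophospholipids, on which the acyltransferases act. The list used here also holds other enzymes, such as lysophospholipases, so its counts do not describe the supply of lysophospholipids. Of 15 phospholipase and lysophospholipase genes tested, 7 had a higher and 8 a lower mean in wh7 (median -0.07). CG18135, related to mammalian glycerophosphocholine phosphodiesterase, had 54184 and 66222 normalized counts in wh7, against 137873 and 81643 in WT. Its log2 fold change of -0.87 (edgeR-adjusted p = 0.323) was -0.44 once WT replicate 1 was left out and -1.20 without WT replicate 2. CG31683 was at -1.07 with wh7 libraries at 2217 and 2108 normalized counts and WT libraries at 2318 and 6792, and at -0.11 once WT replicate 2 was left out and -1.65 without WT replicate 1. The secreted phospholipase gene GXIVsPLA2 had 1184 and 951 normalized counts in wh7 and 665 and 768 in WT, a log2 fold change of 0.58. CG3009 was at the same value of 0.58, but its libraries overlapped and its value ranged from 0.04 (WT replicate 2 left out) to 1.45 (WT replicate 1 left out). The calcium-independent phospholipase gene iPLA2-VIA, at 0.03, and the lysophospholipase gene sws, at 0.15, did not pass either test.

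In flies the transcription factor SREBP responds to phosphatidylethanolamine and drives genes of fatty acid synthesis. SREBP had 34961 and 33805 normalized counts in wh7, against 24162 and 31934 in WT, a log2 fold change of 0.29 (edgeR-adjusted p = 0.574). That of SREBP was 0.11 once WT replicate 1 was left out and 0.50 without WT replicate 2. Its escort gene SCAP (0.08) and the protease genes S1P (-0.14) and S2P (-0.11) lay near 0. Among 11 flippase, scramblase and phospholipid transfer genes, 5 had a higher and 6 a lower mean, with log2 fold changes between -0.42 for rdgB and 0.30 for Tango5 (median -0.14). The flippase gene ATP8B was at -0.39, which was -0.23 once wh7 replicate 2 was left out and -0.57 without wh7 replicate 1, and CG33298 was at 0.16. No gene of the SREBP list or of the flippase, scramblase and transfer list passed edgeR's or DESeq2's test. Over all genes, 0.482% passed edgeR's test and 7.04% of those with an adjusted p passed DESeq2's.

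LPCAT and eas lie on X, the chromosome of wuho, nes and Pcyt1 lie on 3L, oys and bbc on 2R, and frj on 2L. In the RefSeq gene order 402 genes lie between wuho and LPCAT. The nearest gene on one side of LPCAT is Cubn, which encodes a fly cubilin, an endocytic receptor for proteins, and is transcribed from the same strand. Cubn had 660 and 1032 normalized counts in wh7, against 5556 and 6903 in WT. Its mean was 7.36-fold lower in wh7, a log2 fold change of -2.88 (SE 0.29, edgeR-adjusted p = 0.061, DESeq2-adjusted p = 5.98e-17). Both wh7 libraries were far below both WT libraries, as for LPCAT, and the log2 fold change of Cubn lay between -3.24 and -2.60 with single libraries left out. Next to Cubn lies lncRNA:CR42767, with 0 and 4 normalized counts in wh7 and 0 in both WT libraries. On the other side of LPCAT, CG42395, which lies inside an intron of LPCAT on the same strand, had 52.5 and 60.6 normalized counts in wh7, against 54.0 and 38.3 in WT. Next to it, lncRNA:CR45540 had 0 and 2 normalized counts in wh7 and 0 in both WT libraries. Within 10 genes on either side of LPCAT, 14 could be tested. By edgeR's test 0 of them passed, by DESeq2's Cubn did, and 6 of the 14 (42.9%) had an unadjusted p under 0.05, against 14.5% of all genes tested. Their median log2 fold change was 0.22. Of the 1740 genes of X that were tested, 7 (0.402%) passed the test, against 0.482% of all genes tested. Of these 7, 5 were lower in wh7 (0.287% of the tested genes of X, against 0.232% of all), and they include LPCAT, wuho and Top3beta.

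**Figure D4:**
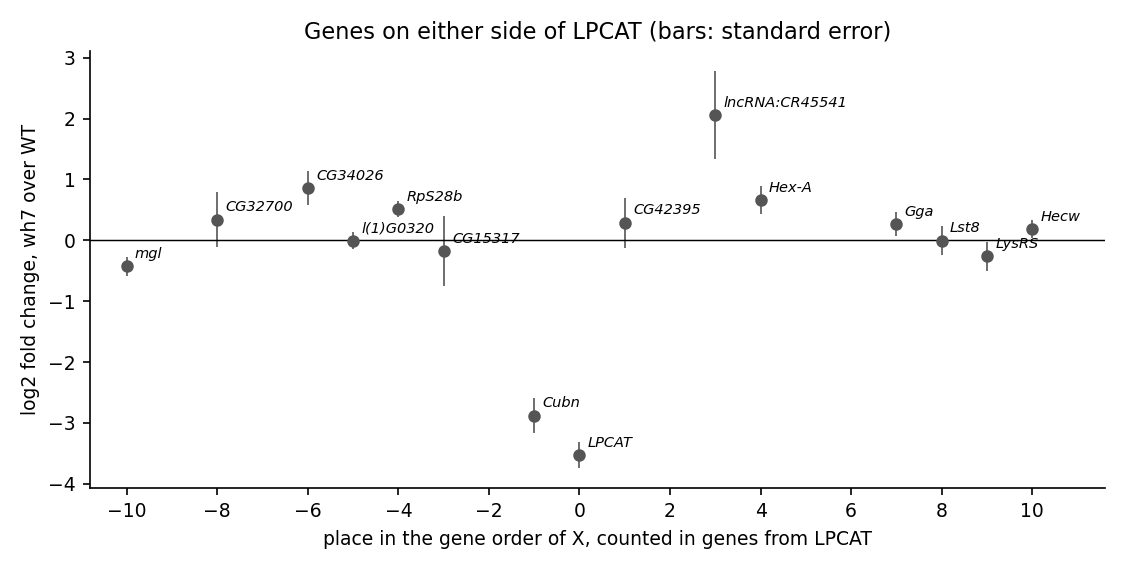
Log2 fold changes, wh7 over WT, with standard errors, of the tested genes within 10 genes of LPCAT on X, by their place in the gene order. LPCAT (-3.53) and its direct neighbor Cubn (-2.88) lie far below the other genes, which lie between -0.43 and 2.06.

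Annotated genes that overlap the 7 genes could bear on their counts where exons overlap. The use of the strand in counting is not given in the sources used here. CG34220, lncRNA:CR44295 and CG42395 lie in introns, without overlap of exons. The gene oys holds CG34220 inside an intron on the same strand. CG34220 had 759562 and 540488 normalized counts in wh7 and 2156870 and 2008987 in WT, a log2 fold change of -1.68 (standard error 0.23) with an edgeR-adjusted p of 0.0897 and a DESeq2-adjusted p of 2.61e-08. The lncRNA:CR44295, in an intron of oys on the opposite strand, had 31.9 and 78.4 normalized counts in wh7 and 0 in both WT libraries. Exons of oys also overlap those of COX7C and CG12129 on the opposite strand. COX7C had 3861 and 3339 normalized counts in wh7, against 2633 and 3442 in WT, and CG12129 had 707 and 872 in wh7, against 956 and 466 in WT. How reads in the shared exons were assigned is not given, and the part of these genes in the counts of oys was not tested. For nes the antisense gene asRNA:CR45210 had 137 and 157 normalized counts in wh7 and 129 and 123 in WT. Exons of Pcyt1 overlap those of Pcyt2 on the same strand, so that reads of this pair cannot be told apart there. They also overlap those of asRNA:CR45813 on the opposite strand, which had 11.3 and 0 normalized counts in wh7 and 0 and 11.7 in WT. No annotated gene overlaps frj, eas or bbc. Besides CG42395, the annotated element mdg3{}CG42395[iso-1] overlaps LPCAT on the opposite strand, without overlap of exons. LPCAT has 1 annotated transcript, whereas the others have between 2 and 8, which counts per gene do not separate.

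The genes whose pattern over the 4 libraries was most like that of LPCAT were found by the Euclidean distance between log2 values, with 1 added to each normalized count and each gene centered on its mean. Corin was nearest (distance 0.02), with 63.8 and 69.0 normalized counts in wh7, against 655 and 891 in WT. Corin had almost the same ratios between libraries as LPCAT, and it encodes a fly relative of the mammalian protease corin. The meiotic gene c(3)G, which encodes a protein of the synaptonemal complex, had 367 and 310 normalized counts in wh7, against 4162 and 4262 in WT (distance 0.39). The log2 fold changes of Corin and c(3)G were -3.54 and -3.64, and each passed edgeR's test (adjusted p = 0.0384 and 0.021). CG32639 (distance 0.15), CG12395 (0.25) and Femcoat (0.32) had 0 normalized counts in both wh7 libraries and between 9.82 and 11.7 in the WT libraries, so that their distance rests on the added 1. With 4 libraries in 2 groups, this likeness mostly orders genes by the size of the same difference.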

How the data were processed

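Total RNA of gut pools was made into libraries with the SureSelect XT HS2 mRNA kit. Per the submitters' processing notes the authors trimmed reads with Trimmomatic 0.36, aligned them with HISAT2 and quantified them with StringTie 2.1.4. The authors deposited whole-number counts per gene without normalization, used here as deposited. The genome build, the strand setting and the step to whole counts are not given in the sources used here, so no coordinates are printed. A table of the authors' own comparison, with fold changes, p-values and scaled counts, was not used.

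Libraries were grouped by their titles. Of 17807 identifiers, 17710 matched a symbol. filterByExpr kept 10795 genes, and wh7 was set against WT after TMM scaling in edgeR 4.0.16 (R 4.3.3, limma 3.58.1) by the quasi-likelihood test on genotype alone, with Benjamini-Hochberg adjustment over all genes tested and a threshold of 0.05. DESeq2 1.42.0, other scaling, no filter, a replicate block and leaving out each library were alternatives. Each standard error was derived from the fold change and its F statistic. Chromosome arms, coding lengths and overlaps came from the annotation of BDGP6.54, gene order from RefSeq (Release 6 plus ISO1 MT). The procedure was tested on simulated data.

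The members and the lists were chosen with earlier results of these data known. Genes named are the 7 members, wuho, per list the 2 genes at either end of the log2 fold changes, where they had a mean of at least 50 normalized counts, genes that passed the test, the 2 genes on each side of LPCAT and the 5 genes nearest in pattern. Other genes named (Pect, CG2201, mino, Gpat4, Taz, iPLA2-VIA, sws, the list genes that passed an alternative, Top3beta and the overlapping genes) were chosen after their values were seen.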

Additional observations from a re-analysis of the deposited data

How the results depend on the processing

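The number of genes that passed edgeR's test over the whole table was 52, and it was 30 without a filter on low counts, 798 with DESeq2's Wald test, and between 0 and 921 with single libraries left out (0 without wh7 replicate 1, 0 without wh7 replicate 2, 401 without WT replicate 1 and 921 without WT replicate 2). At an unadjusted p under 0.05 there were 1570. The log2 fold change of LPCAT (-3.53) kept its direction under every alternative run. Without a library it lay between -3.72 and -3.31, and it did not pass the test without wh7 replicate 1 or wh7 replicate 2. The replicate numbers are shared by the genotypes, but with 2 pairs nothing shows that they pair the libraries (correlation of deviations -0.15 over 10795 genes). With the replicate block 0 genes passed the test, and the log2 fold change of LPCAT was -3.51, which then did not pass. With the numbers crossed, chosen after seeing the data, 99 genes passed, LPCAT among them, and 0 genes of the phospholipid lists. Of the 51 tested list genes, 0 passed in the main comparison, 3 by DESeq2's test, and between 0 and 4 with single libraries left out. The sign of bbc turned without WT replicate 2 (-0.11) and without wh7 replicate 1 (-0.01), against 0.12 without WT replicate 1, and that of Pcyt1 without WT replicate 2 (0.27, against -0.54 without WT replicate 1). The cause was not tested. The ratio of the summed levels of LPCAT, nes, oys and frj (1.20) was 1.28 without length scaling. The smallest absolute log2 fold change among the 52 genes that passed was 1.60, and WT libraries were up to 1.76-fold apart in the 7 genes. The study calls the pools of each genotype biological replicates, and whether they came from separate crosses is not given in the sources used here.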
